A study of Homo sapiens with 8 samples.

Results

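The SOX genes outside SOX2 that work in neural tissue and the neural crest were followed in NTera2/D1, an established line of human embryonal carcinoma cells that turns towards neural cells under retinoic acid (RA). The 10 genes were chosen by name: SOX1, SOX3, SOX4, SOX5, SOX6, SOX8, SOX9, SOX10, SOX11 and SOX21. All 10 are among the 19426 genes named on the exon array and among the 18732 genes that were tested. The groups were RA siRNF20, DMSO siRNF20, RA siLacZ and DMSO siLacZ, with 2 arrays in each group. RA was given at 10 µM for 72 h and DMSO was its vehicle. siRNF20 is a small interfering RNA against RNF20, which attaches ubiquitin to histone H2B, and siLacZ, against a bacterial gene, is its control. All groups come from 1 cell line. In each group 1 array carries the number GF117 and the other GF120, and the labels call them biological duplicates without saying what the numbers stand for.

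SOX proteins are transcription factors that bind the minor groove of DNA through a shared HMG box and fall into lettered groups by sequence. SOX1 and SOX3, with SOX2, form group B1, which keeps neural progenitors undifferentiated, and SOX21 of group B2 is a repressor that acts against them. SOX4 and SOX11 of group C act in differentiating neurons. SOX5 and SOX6 of group D have no activation domain of their own and work with other SOX proteins, as with SOX9 in cartilage. SOX8, SOX9 and SOX10 of group E act in the neural crest and in glia, and SOX9 also in cartilage.

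A level below is the median log2 intensity of the array rows (probe sets) named for a gene that were brighter than the median row, and levels of different genes cannot be set against each other. The array labelled RA siLacZ GF117 stood apart, with correlations of 0.135 to 0.239 with the other arrays over gene levels, whereas the other 7 correlated at 0.908 to 0.975. RNF20 was at 6.27 and 5.89 on the RA siRNF20 arrays and at 6.48 and 5.98 on the DMSO siRNF20 arrays, against 8.10 on the RA siLacZ GF120 array and 8.24 and 8.09 on the DMSO siLacZ arrays. On the array labelled RA siLacZ GF117 it was 6.08, within the range of the siRNF20 arrays and against its label. That array gave 26.1% of all genes above all 4 DMSO arrays and 63.4% below all of them. It was left out of the fit, in which the RA siLacZ group then holds a single array whose spread is taken from the other groups, and results with all 8 arrays are given beside. Of the 7 embryonal carcinoma markers, none was near the bottom of the scale on the DMSO arrays, where they ranged from 7.43 to 11.7. Their mean level per array was 7.88 to 8.49 on the RA arrays and 9.73 to 9.86 on the DMSO arrays. The mean of the neural progenitor markers PAX6, NES and SOX1 was 7.62 to 7.81 on the RA arrays and 6.11 to 6.46 on the DMSO arrays. The difference came mostly from PAX6, at 7.07 to 7.63 on the RA arrays and 4.01 to 4.16 on the DMSO arrays. NES was at 8.79 to 9.09 on the RA arrays and 8.14 to 8.44 on the DMSO arrays. SOX1, itself 1 of the 10 genes, was at 6.79 to 7.01 against 6.07 to 6.79.

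RA raised 3 of the 10 genes when its effect was averaged over the siRNF20 and siLacZ backgrounds: SOX5 by 3.13-fold, SOX21 by 1.84-fold and SOX3 by 1.72-fold. None of the 10 fell, beside 5.92% of all genes called lower. The test was limma's moderated test with Benjamini-Hochberg adjustment over all genes and a threshold of 0.05, and 4.11% of all genes were called higher in this comparison and 10.0% were called in either direction. The median change of the 10 genes was 0.23 on the log2 scale, against -0.05 over all genes tested. In siRNF20 cells alone SOX5 and SOX3 were called higher, against a background of 1.79% of genes called higher and 3.92% called either way. In siLacZ cells alone SOX5 was called higher, against 1.88% of genes called higher and 3.91% called either way. By siRNF20 itself none of the 10 was called at either treatment, beside 0% of all genes in DMSO and 0.0107% in RA. With all 8 arrays no member was called in any comparison. There 29 of 18747 genes were called for RA averaged over backgrounds and 0 in each other comparison, so this count is not particular to the SOX genes. A whole-culture RNA level cannot tell fewer cells of a type from less RNA per cell, and this holds for every level given here.

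Without regard to any model, the 3 RA arrays lay above all 4 DMSO arrays for SOX1, SOX3, SOX5, SOX6 and SOX21, which is 5 of 10 genes, beside 8.07% of all genes. None of the 10 lay below on all 3 RA arrays, beside 12.6% of all genes. The gap was 0.006 log2 units for SOX1 and 0.04 for SOX6. For SOX4, SOX8, SOX9, SOX10 and SOX11 the arrays of the 2 treatments overlapped.

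**Figure D1:**
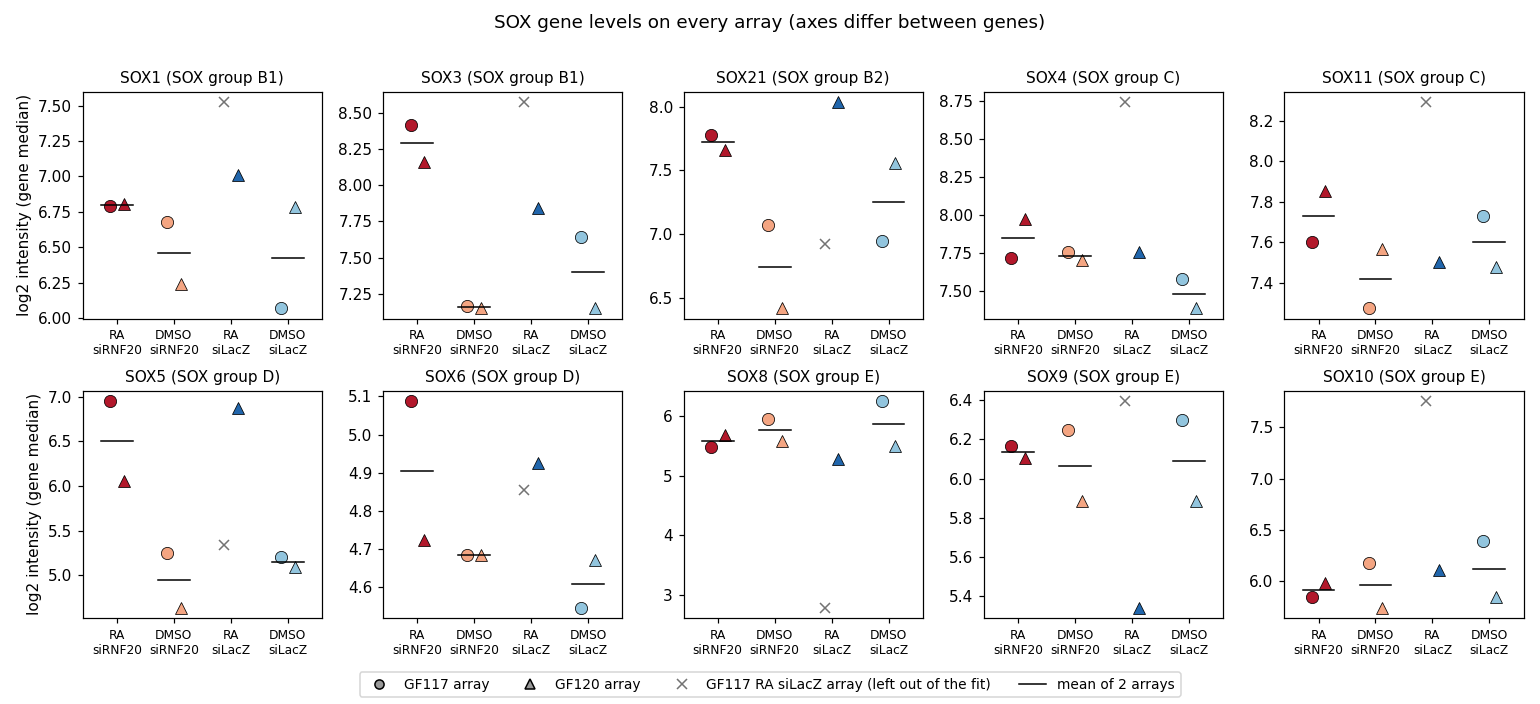
Level of each of the 10 SOX genes (median log2 intensity, vertical axis, scaled for each gene) on every array, by group from left to right, with circles for GF117 and triangles for GF120 arrays, bars for the mean of 2 arrays and a cross for the array labelled RA siLacZ GF117, which was left out of the fit. SOX5 and SOX3 sit higher on all 3 RA arrays than on the 4 DMSO arrays, and the cross lies far from its partner for SOX8 and SOX10.

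The promoters of the 3 genes called higher by RA averaged over backgrounds are shown. Each is RefSeq's sequence (build GRCh38.p14) from 250 bases before to 50 bases after the start site, read 5′ to 3′ on the gene's own strand, with matched motifs in capitals. The SOX5 window lies at chr12:24562442-24562741, the SOX3 window at chrX:140505020-140505319 and the SOX21 window at chr13:94712496-94712795, all on the minus strand of the genome. In SOX5 the capitals mark ACAATG, a letter string of the kind that SOX proteins bind, read on the opposite strand, and in SOX21 they mark TATAAA read on the opposite strand.
SOX5: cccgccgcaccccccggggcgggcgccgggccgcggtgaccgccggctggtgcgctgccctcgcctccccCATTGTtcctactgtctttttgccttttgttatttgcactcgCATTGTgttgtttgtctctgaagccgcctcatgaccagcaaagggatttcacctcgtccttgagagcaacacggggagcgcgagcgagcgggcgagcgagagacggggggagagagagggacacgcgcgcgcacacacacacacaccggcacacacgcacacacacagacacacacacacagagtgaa
SOX3: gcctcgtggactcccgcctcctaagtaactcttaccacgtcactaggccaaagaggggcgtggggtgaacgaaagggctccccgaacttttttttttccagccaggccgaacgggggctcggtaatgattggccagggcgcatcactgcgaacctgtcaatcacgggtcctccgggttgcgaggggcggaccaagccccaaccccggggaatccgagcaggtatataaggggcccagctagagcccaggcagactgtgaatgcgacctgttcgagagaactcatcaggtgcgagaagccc
SOX21: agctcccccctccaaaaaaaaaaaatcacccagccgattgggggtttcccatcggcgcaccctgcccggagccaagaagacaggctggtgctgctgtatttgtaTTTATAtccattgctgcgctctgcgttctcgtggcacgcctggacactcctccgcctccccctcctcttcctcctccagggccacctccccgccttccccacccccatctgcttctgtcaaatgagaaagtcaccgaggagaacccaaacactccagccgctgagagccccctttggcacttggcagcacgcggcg
The search covered both strands for the strings AGGTCA and AGTTCA that retinoic acid receptors bind in pairs, the SOX strings ACAAAG and ACAATG, and TATAAA, whose matches do not share bases with those of the other strings in these windows. The SOX5 window held 2 ACAATG matches, at positions -180 and -138 from the start site, and 10.8% of 35116 promoters of this length hold at least 1. The SOX21 window held 1 TATAAA match at position -146, and 11.5% of promoters hold at least 1. None of the strings occurred in the SOX3 window. Only exact matches were counted, so near matches, such as tatataag in the printed SOX3 window, were left out. Neither AGGTCA nor AGTTCA occurred in any of the 3 windows, and 22.6% of promoters hold one or the other. Their GC content was 63.7% for SOX5, 60.3% for SOX3 and 60% for SOX21, against a median of 58.7% over promoters, and they held 29, 20 and 15 CG dinucleotides in that order, against a median of 14. SOX1 had the most CG-rich window of the matched members, at 80% GC with 37 CG dinucleotides. Of the other members' windows, SOX4 held 1 AGGTCA match, at position -172, and 2 of the 5 SOX6 windows held 1 each, at positions -2 and 35. Of the 10 genes 6 had entries, SOX6 with several start sites, and SOX8, SOX9, SOX10 and SOX11 had none among the sequences used.

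SOX3, a group B1 gene of the X chromosome and an early marker of neural ectoderm, stood at 8.41 and 8.16 on the RA siRNF20 arrays and at 7.17 and 7.15 on the DMSO siRNF20 arrays. In siLacZ cells it stood at 7.84 on the RA array and at 7.64 and 7.16 on the DMSO arrays. The RA arrays were all higher, but in siLacZ cells the RA array exceeded the higher DMSO array by less than the distance between those 2 DMSO arrays. Averaged over backgrounds the log2 change was 0.79 (SE 0.17, limma adjusted p = 0.0172). In siRNF20 cells it was 1.13 (SE 0.21, limma adjusted p = 0.0173), and in siLacZ cells 0.44 (SE 0.26, limma adjusted p = 0.467). The difference between those responses, siRNF20 minus siLacZ, was 0.69 (SE 0.33, limma adjusted p = 0.999), so the smaller response in siLacZ cells was not shown to differ. Compared within one number, RA minus DMSO was 1.25 (GF117) and 1.01 (GF120) in siRNF20 cells and 0.69 (GF120) in siLacZ cells. The averaged call was lost when the DMSO siRNF20 GF117, DMSO siRNF20 GF120 or DMSO siLacZ GF120 array was left out (limma adjusted p = 0.0532, 0.0515 and 0.0524, with log2 changes of 0.79, 0.78 and 0.66). The call in siRNF20 cells was lost without the DMSO siRNF20 GF117, DMSO siRNF20 GF120 or RA siRNF20 GF117 array (limma adjusted p = 0.111, 0.105 and 0.0737). With no intensity trend the call in siRNF20 cells was also lost. With all 8 arrays the averaged change was 0.97 and did not pass (limma adjusted p = 0.650).

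The rows of SOX3 did not move as one. Of its 11 rows, 7 had all 3 RA arrays above all 4 DMSO arrays, against 6.97% of all rows. In both backgrounds 8 of the 11 were higher by RA. Row 4024318 was at 9.13 and 8.75 on the RA siRNF20 arrays and at 6.90 and 6.33 on the DMSO siRNF20 arrays, and at 8.90 on the RA siLacZ array against 6.78 and 5.81 on the DMSO siLacZ arrays. Row 4024319, the brightest of the gene, was at 10.65 and 10.70 on the RA siRNF20 arrays and at 10.67 and 10.73 on the DMSO siRNF20 arrays, and at 10.73 on the RA siLacZ array against 10.47 and 10.87 on the DMSO siLacZ arrays. The first of these rows separated the treatments by over 1 log2 unit in each background, whereas in the second the RA and DMSO arrays overlapped. When a gene was taken as the mean of its rows in place of the median, SOX3 also passed in siLacZ cells (log2 change 0.95, limma adjusted p = 0.0262).

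SOX1, the other B1 gene, marks cells committed to the neural plate. It stood at 6.79 and 6.81 on the RA siRNF20 arrays and at 6.68 and 6.24 on the DMSO siRNF20 arrays, and at 7.01 on the RA siLacZ array against 6.07 and 6.79 on the DMSO siLacZ arrays. The RA arrays were above all DMSO arrays, yet the lowest RA level exceeded the highest DMSO level by only a small part of the spread among DMSO arrays. The averaged log2 change was 0.46 (SE 0.21, limma adjusted p = 0.239). It was 0.34 in siRNF20 cells (limma adjusted p = 0.665) and 0.59 in siLacZ cells (limma adjusted p = 0.449). Under a stricter filter on dim rows SOX1 passed in siLacZ cells at 1.79 (limma adjusted p = 0.0107) and averaged at 0.93 (limma adjusted p = 0.0149), and with the mean over rows it passed averaged at 0.56 (limma adjusted p = 0.0302).

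The rows of SOX1 also differed among themselves. Row 3502013 was at 7.06 and 6.75 on the RA siRNF20 arrays and at 5.22 and 4.21 on the DMSO siRNF20 arrays, and at 8.43 on the RA siLacZ array against 4.60 and 5.11 on the DMSO siLacZ arrays. Row 3502011 was at 6.38 and 6.85 on the RA siRNF20 arrays and at 6.13 and 6.19 on the DMSO siRNF20 arrays, and at 9.32 on the RA siLacZ array against 6.07 and 6.28 on the DMSO siLacZ arrays. The brightest row, 3502009, was at 11.91 and 11.98 on the RA siRNF20 arrays and at 11.79 and 11.98 on the DMSO siRNF20 arrays, and at 12.07 on the RA siLacZ array against 11.81 and 11.93 on the DMSO siLacZ arrays. In a fit of single rows, added after the data were seen and adjusted over 277620 rows, row 3502013 rose by RA in both backgrounds, by 2.19 in siRNF20 cells (limma adjusted p = 0.0346) and by 3.58 in siLacZ cells (limma adjusted p = 0.00899). Row 3502011 rose in siLacZ cells by 3.14 (limma adjusted p = 0.00294), and in siRNF20 cells its change was 0.45 (limma adjusted p = 0.678). The other 9 rows of SOX1 above the filter did not pass.

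SOX21, the group B2 repressor, stood at 7.78 and 7.66 on the RA siRNF20 arrays and at 7.07 and 6.42 on the DMSO siRNF20 arrays. It stood at 8.04 on the RA siLacZ array and at 6.94 and 7.56 on the DMSO siLacZ arrays. All RA arrays were higher, and the DMSO arrays of each background lay over 0.6 log2 units apart. The averaged log2 change was 0.88 (SE 0.22, limma adjusted p = 0.0314). It was 0.97 in siRNF20 cells (SE 0.27, limma adjusted p = 0.0934) and 0.78 in siLacZ cells (SE 0.33, limma adjusted p = 0.281), neither of which passed. Within one number RA minus DMSO was 0.70 (GF117) and 1.24 (GF120) in siRNF20 cells and 0.48 (GF120) in siLacZ cells. The averaged call was lost without the DMSO siLacZ GF117 array (0.73, limma adjusted p = 0.0974) or the DMSO siRNF20 GF120 array (0.72, limma adjusted p = 0.0863), with the mean over rows (0.79, limma adjusted p = 0.0534), with no intensity trend (limma adjusted p = 0.0693) and with all 8 arrays (0.60, limma adjusted p = 0.675). Of its 13 rows 11 were higher by RA in both backgrounds. All RA arrays were above all DMSO arrays in 5 rows, against 6.97% of all rows. In the fit of single rows, averaged over backgrounds, 1 of the 13 was called. The brightest SOX21 row, 3521095, had an averaged change of -0.08 there (limma adjusted p = 0.861).

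SOX5, a group D gene with roles in cartilage and in the cortex and neural crest, gave the largest change of the 10 genes. It stood at 6.95 and 6.06 on the RA siRNF20 arrays and at 5.24 and 4.64 on the DMSO siRNF20 arrays. It stood at 6.88 on the RA siLacZ array and at 5.20 and 5.09 on the DMSO siLacZ arrays. Every RA array was at least 0.8 log2 units above every DMSO array. The averaged log2 change was 1.65 (SE 0.26, limma adjusted p = 0.00395). The change was 1.56 in siRNF20 cells (SE 0.33, limma adjusted p = 0.0315) and 1.73 in siLacZ cells (SE 0.40, limma adjusted p = 0.0482), and their difference was -0.17 (SE 0.52, limma adjusted p = 0.999). Within one number RA minus DMSO was 1.71 (GF117) and 1.42 (GF120) in siRNF20 cells and 1.79 (GF120) in siLacZ cells.

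The averaged call of SOX5 held when each of the other 6 arrays was left out in turn, and without the RA siLacZ GF120 array no averaged contrast can be formed. In siLacZ cells the call did not survive leaving out the DMSO siLacZ GF117 array (limma adjusted p = 0.155) or the DMSO siLacZ GF120 array (limma adjusted p = 0.158), with changes of 1.79 and 1.67. The call in siRNF20 cells was lost without the RA siRNF20 GF117 array (1.12, limma adjusted p = 0.138), the DMSO siRNF20 GF120 array (1.26, limma adjusted p = 0.183), the DMSO siLacZ GF117 array (limma adjusted p = 0.0572) or the DMSO siLacZ GF120 array (limma adjusted p = 0.0583). With no intensity trend the SOX5 calls in siRNF20 cells and in siLacZ cells were both lost. With all 8 arrays the averaged change was 1.31 (limma adjusted p = 0.436). The array labelled RA siLacZ GF117 gave SOX5 at 5.34, just above the highest DMSO array and below the other RA arrays.

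SOX5 moved along most of its rows. Of 35 rows 31 were above the filter, 30 of these were higher by RA in both backgrounds, and 24 had all 3 RA arrays above all 4 DMSO arrays, against 6.97% of all rows. Its brightest row, 3447406, was at 9.03 and 8.64 on the RA siRNF20 arrays and at 7.78 and 7.60 on the DMSO siRNF20 arrays, and at 9.17 on the RA siLacZ array against 7.14 and 7.61 on the DMSO siLacZ arrays. In the fit of single rows, averaged over backgrounds, 20 rows of SOX5, 6 of SOX3, 2 of SOX1 and 1 of SOX21 were called higher, 29 of the 142 rows of the 10 genes above the filter, against 2.50% of all rows. In siRNF20 cells 7 rows of the 10 genes were called higher, against 0.924%, and in siLacZ cells 10, against 0.935%. None of the 142 was called lower, where 3.01% of all rows were averaged over backgrounds, 0.915% in siRNF20 cells and 0.987% in siLacZ cells. Of the 142 rows 47 had all RA arrays above all DMSO arrays and 1, a row of SOX11, had them all below, against 9.72% of all rows. The rows of a gene share its transcripts and are no replicates. The filter took the mean over all 7 arrays, so a row dim under DMSO could pass through its RA arrays. Some of the SOX5 rows counted here did so. Row 3447367 was at 2.62 to 3.89 on the DMSO arrays, under the limit of 3.97, and at 4.01 to 6.20 on the RA arrays. Among the 47 rows, row 3502008 of SOX1 was at 3.06 to 4.52 on the DMSO arrays and at 4.70 to 5.30 on the RA arrays. The counts were not taken again without such rows. No row of SOX4, SOX6, SOX8, SOX9, SOX10 or SOX11 was called.

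**Figure D2:**
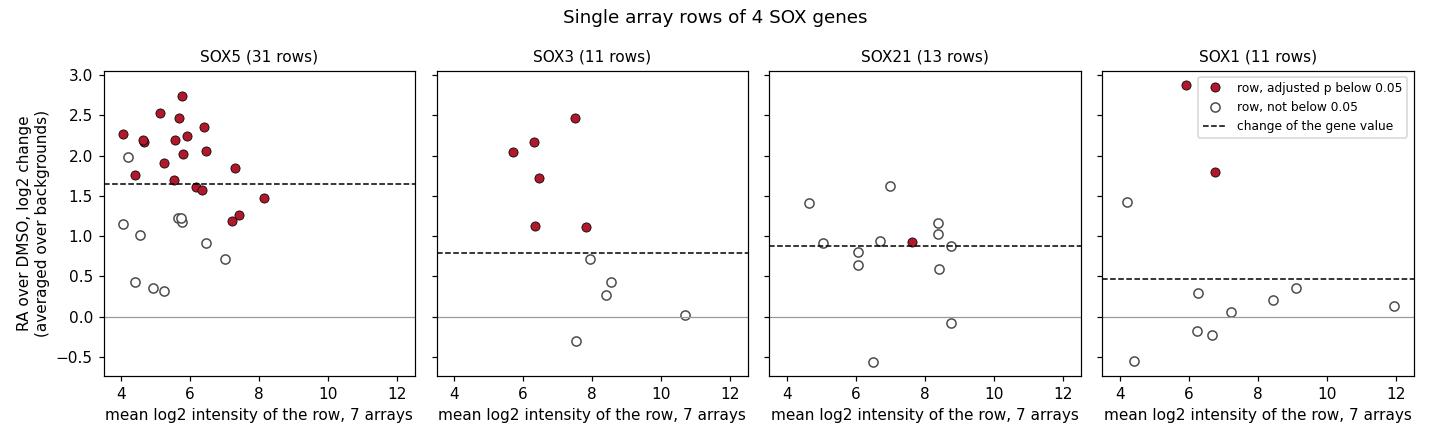
Averaged log2 change by RA over DMSO (vertical axis) of each array row of SOX5, SOX3, SOX21 and SOX1 above the filter, against the row's mean log2 intensity over 7 arrays (horizontal axis), with filled points for rows with an adjusted p below 0.05 and a dashed line at the change of the gene level. The SOX5 points lie above 0 throughout, while the brightest rows of SOX3 (10.7), SOX1 (11.9) and SOX21 (8.76) lie near 0.

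SOX6, the other group D gene measured, was at 5.09 and 4.72 on the RA siRNF20 arrays and at 4.68 on both DMSO siRNF20 arrays, and at 4.93 on the RA siLacZ array against 4.55 and 4.67 on the DMSO siLacZ arrays. The RA arrays were all higher, by as little as 0.04 log2 units. Its averaged change was 0.27 (SE 0.23, limma adjusted p = 0.568), and 22 of its 35 rows were as dim as the median row of the array or dimmer, so its level rests on 13 rows.

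The group C genes, which support neuronal differentiation, showed small values of either sign. SOX4 was at 7.72 and 7.97 on the RA siRNF20 arrays and at 7.76 and 7.70 on the DMSO siRNF20 arrays, and at 7.75 on the RA siLacZ array against 7.58 and 7.38 on the DMSO siLacZ arrays. SOX11 was at 7.60 and 7.85 on the RA siRNF20 arrays and at 7.27 and 7.57 on the DMSO siRNF20 arrays, and at 7.51 on the RA siLacZ array against 7.73 and 7.48 on the DMSO siLacZ arrays. For both genes the RA and DMSO arrays overlapped. The averaged log2 changes were 0.19 for SOX4 (SE 0.15, limma adjusted p = 0.4996) and 0.10 for SOX11 (SE 0.16, limma adjusted p = 0.777). Both genes had bright rows, the brightest at 10.5 for SOX4 and 12.8 for SOX11, and 1 of 18 rows of SOX4 and 3 of 19 rows of SOX11 had all RA arrays above all DMSO arrays, against 6.97% of all rows. That brightest row of SOX11 was the 1 row of the 10 genes above the filter with all RA arrays below all DMSO arrays, with an averaged change of -0.14 that did not pass (limma adjusted p = 0.487).

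None of the group E genes was called. SOX8 was at 5.47 and 5.69 on the RA siRNF20 arrays and at 5.95 and 5.58 on the DMSO siRNF20 arrays, and at 5.28 on the RA siLacZ array against 6.25 and 5.49 on the DMSO siLacZ arrays. SOX10, which drives glial and pigment cell fates in the crest, was at 5.84 and 5.98 on the RA siRNF20 arrays and at 6.18 and 5.74 on the DMSO siRNF20 arrays, and at 6.11 on the RA siLacZ array against 6.39 and 5.84 on the DMSO siLacZ arrays. The treatments overlapped for both. The averaged log2 change was -0.38 for SOX8 (SE 0.23, limma adjusted p = 0.388). For SOX10 it was -0.03 (SE 0.21, limma adjusted p = 0.961), turning to 0.47 with all 8 arrays. Of the 10 SOX8 rows above the filter, 5 were lower by RA in both backgrounds and 1, the brightest at 9.15, was higher in both. That row had all RA arrays above all DMSO arrays, as 6.97% of all rows did. Its averaged change of 0.59 did not pass (limma adjusted p = 0.0827).

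SOX9, which acts in crest formation, glial fate and cartilage, was at 6.17 and 6.11 on the RA siRNF20 arrays and at 6.25 and 5.88 on the DMSO siRNF20 arrays. In siLacZ cells it was at 5.34 on the RA array and at 6.30 and 5.89 on the DMSO arrays. The 1 RA siLacZ array was thus the lowest of the 7, and the other 6 lay within 5.88 to 6.30. The change by RA was 0.07 in siRNF20 cells (SE 0.24, limma adjusted p = 0.943) and -0.75 in siLacZ cells (SE 0.30, limma adjusted p = 0.242), with a difference of 0.82 (SE 0.38, limma adjusted p = 0.999). SOX9 had the largest siRNF20 minus siLacZ value of the 10 genes, 0.80 in RA (SE 0.30, limma adjusted p = 0.567), and was the 1 member with an unadjusted p below the threshold there. It rests on that 1 array. With all 8 arrays it was 0.27 with the rows held as in the 7 arrays (a setting added after the data were seen) and -0.18 with the limit for dim rows taken anew over the 8, so there its sign turned on which rows were kept.

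**Figure D3:**
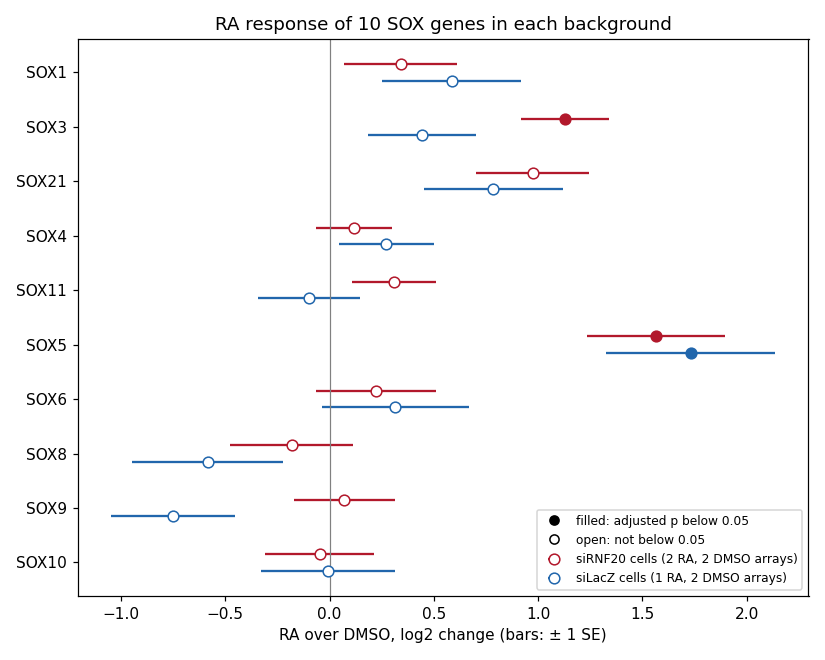
Log2 change by RA over DMSO (horizontal axis, bars of 1 SE either side) of the 10 SOX genes in siRNF20 cells (red, 2 RA and 2 DMSO arrays) and in siLacZ cells (blue, 1 RA and 2 DMSO arrays), with filled points for an adjusted p below 0.05. SOX5 is filled in both backgrounds at 1.56 and 1.73, SOX3 in siRNF20 cells at 1.13, and the other points are open.

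Depletion of RNF20 left no called change in any of the 10 genes. In DMSO the share of genes called over the whole array was 0%, in RA 0.0107% and averaged over treatments 0.00534%, and for the difference between RA responses it was 0%. At an unadjusted p below the threshold of 0.05, limma gave 0 of the 10 genes in DMSO, 1 in RA, 0 averaged and 0 for the difference, where 519, 1485, 1532 and 737 of all genes had such a p. Among the 3 genes that rose by RA, siRNF20 minus siLacZ in RA was 0.45 for SOX3, -0.37 for SOX5 and -0.32 for SOX21, and in DMSO it was -0.24, -0.20 and -0.50 for these genes in that order. With standard errors of 0.21 to 0.40, effects of this size could not be told from the spread between arrays.

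SOX2, the B1 gene that was left out of the 10, was at 10.69 and 10.73 on the RA siRNF20 arrays and at 10.49 on both DMSO siRNF20 arrays, and at 9.90 on the RA siLacZ array against 10.50 and 10.55 on the DMSO siLacZ arrays. It fell by RA in siLacZ cells by 0.62 (limma adjusted p = 0.0357), while in siRNF20 cells its change was 0.22 (limma adjusted p = 0.389) and the difference between them was 0.84 (SE 0.17, limma adjusted p = 0.757). The fall was lost without any 1 of the DMSO arrays (limma adjusted p = 0.0758 to 0.120), under quantile normalization (-0.52, limma adjusted p = 0.0717), under the stricter filter on dim rows (limma adjusted p = 0.0522), with no intensity trend (limma adjusted p = 0.231) and with all 8 arrays (-3.03, limma adjusted p = 0.440). SOX2 was the only 1 of the 9 other SOX genes measured that was called in any comparison. The averaged changes of those 9 ran from -0.20 for SOX2 to 0.34 for SOX15, with a median of -0.04.

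Genes that work with or after these SOX proteins were taken from lists. Each list's counts stand beside 4.11% of all genes called higher and 5.92% called lower in the averaged comparison. Of the SOXB1 partners and neural progenitor genes, 28 of 30 were measured, and averaged over backgrounds RA raised 11 and lowered 2, with a median change of 0.07 against -0.05 over all genes. PAX6, an eye and forebrain regulator that pairs with SOX2, rose by 3.31 (SE 0.18, limma adjusted p = 9.12e-06), and CDH2, the neural cadherin, by 1.92 (SE 0.13, limma adjusted p = 2.24e-05). DACH1, a corepressor, rose by 1.73 (SE 0.20, limma adjusted p = 0.000640), and OTX2, a forebrain and midbrain regulator, fell by 2.18 (SE 0.16, limma adjusted p = 4.13e-05). PAX6 was at 7.07 and 7.23 on the RA siRNF20 arrays and at 4.08 and 4.06 on the DMSO siRNF20 arrays, and at 7.63 on the RA siLacZ array against 4.01 and 4.16 on the DMSO siLacZ arrays.

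Of the proneural and neuronal genes, which include targets of SOX4 and SOX11, 27 of 31 were measured and RA raised 5 and lowered 4, with a median change of 0.00. DCX, a microtubule protein of migrating neurons, rose by 2.05 (SE 0.15, limma adjusted p = 3.57e-05), ISL1, a motor and sensory neuron factor, by 1.88 (SE 0.21, limma adjusted p = 0.000452) and NCAM1, an adhesion molecule, by 1.85 (SE 0.17, limma adjusted p = 0.000128). ATOH1, a proneural factor, fell by 2.16 (SE 0.57, limma adjusted p = 0.0414). The mean of the 3 neuron markers TUBB3, DCX and STMN2 was 6.93 to 7.27 on the RA arrays and 5.95 to 6.45 on the DMSO arrays. TUBB3 was at 7.77 to 8.40 against 7.34 to 8.21 and STMN2 at 4.27 to 5.63 against 4.17 to 5.33, both overlapping. Neither TUBB3 (0.41, limma adjusted p = 0.246) nor STMN2 (0.13, limma adjusted p = 0.882) passed averaged over backgrounds. The group C genes themselves passed in neither direction.

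The neural crest list had 35 of 36 genes measured, of which RA raised 6 and lowered 8, with a median change of -0.19. NR2F1, a nuclear receptor that RA is known to induce, rose by 3.45 (SE 0.22, limma adjusted p = 1.66e-05) and TFAP2A, a crest specifier, by 1.95 (SE 0.19, limma adjusted p = 0.000190). ETS1 fell by 3.34 (SE 0.30, limma adjusted p = 0.000117) and MYC by 2.36 (SE 0.22, limma adjusted p = 0.000148), both also expressed well beyond the crest. The mean of the 5 neural crest markers (TFAP2A, PAX3, FOXD3, SNAI2 and SOX10) was 5.75 to 6.02 on the RA arrays and 5.57 to 5.98 on the DMSO arrays, which overlap, and the markers differed in direction. PAX3 was at 5.03 to 6.31 on the RA arrays and 4.60 to 4.95 on the DMSO arrays and rose (1.04, limma adjusted p = 0.0204), as TFAP2A did. FOXD3 was at 5.59 to 6.16 on the RA arrays and 6.60 to 7.32 on the DMSO arrays, and fell by 1.12 (limma adjusted p = 0.0137). Neither PAX3 nor FOXD3 passed in either background alone. SNAI2 was at 4.47 to 4.63 on the RA arrays and 5.10 to 6.75 on the DMSO arrays, with no overlap, and its change of -1.34 did not pass (limma adjusted p = 0.0707). These 3 were singled out after their values were seen.

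Of the glial genes 25 of 27 were measured, with a median change of -0.20. RA raised 3 and lowered 2, beside 4.11% and 5.92% of all genes. PDGFRA, a receptor of oligodendrocyte precursors that mesenchyme also expresses, rose by 2.13 (SE 0.21, limma adjusted p = 0.000200), and POU3F1, a factor of Schwann cells, by 1.05 (SE 0.13, limma adjusted p = 0.000913). ERBB3, a neuregulin receptor of the crest and Schwann cells, fell by 1.31 (SE 0.15, limma adjusted p = 0.000583) and MOG, a myelin protein, by 0.99 (SE 0.27, limma adjusted p = 0.0494). MOG lay at 4.16 to 4.84 on the RA arrays and at 4.91 to 5.71 on the DMSO arrays, and passed in neither background alone. MBP, a gene of myelin, lay at 4.95 to 5.34 on the RA arrays and at 5.14 to 5.99 on the DMSO arrays.

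All 25 cartilage genes, among which SOX9, SOX5 and SOX6 have direct targets, were measured, with a median change of -0.15. None fell, beside 5.92% of all genes called lower, and 3 rose, beside 4.11% called higher. These were HAPLN1, a link protein of hyaluronan, by 3.81 (SE 0.27, limma adjusted p = 3.31e-05), HAS2, a hyaluronan synthase, by 2.03 (SE 0.21, limma adjusted p = 0.000318), and COL11A1, a fibrillar collagen, by 0.80 (SE 0.18, limma adjusted p = 0.0194). COL11A1 passed in neither background alone, and HAS2 passed in siRNF20 cells but not in siLacZ cells. The 3 chondrocyte markers COL2A1, ACAN and MATN1 had a mean of 5.54 to 5.61 on the RA arrays and of 5.59 to 5.80 on the DMSO arrays, which overlap.

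**Figure D4:**
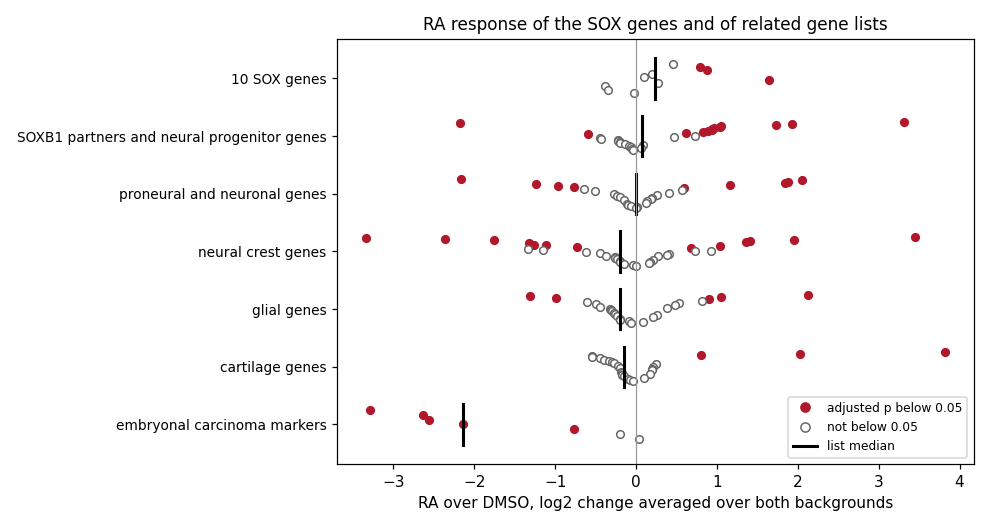
Log2 change by RA over DMSO averaged over both backgrounds (horizontal axis) of each measured gene of the 10 SOX genes, of 5 related lists and of the embryonal carcinoma markers (rows), with filled points for an adjusted p below 0.05 and a black bar at each list's median. The SOX genes have a median of 0.23 and span a narrower range than the other lists, and the embryonal carcinoma markers have the lowest median, at -2.14.

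Beside these, 5 of 7 embryonal carcinoma markers fell and none rose, with a median of -2.14. NANOG fell by 3.29 (SE 0.12, limma adjusted p = 2.56e-06), CRIPTO by 2.64 (SE 0.17, limma adjusted p = 1.64e-05), L1TD1 by 2.55 (SE 0.14, limma adjusted p = 9.58e-06) and POU5F1 fell by 2.14 (SE 0.26, limma adjusted p = 0.000749). LIN28A, which such cells also express, lay between 11.4 and 11.9 on the RA arrays and between 11.5 and 11.7 on the DMSO arrays. None of the 5 endoderm and mesoderm markers was called, with GATA4 at -0.42 and TBXT at -0.25. The part of the shift in embryonal carcinoma markers in the rise of SOX5, SOX3 and SOX21 was not tested. None of the listed genes was called by siRNF20, beside 0% of all genes in DMSO, 0.0107% in RA and 0.00534% averaged over treatments.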

How the data were processed

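Expression was measured on 8 Affymetrix exon arrays, and the deposited values are linear intensities per array row; how the authors corrected and normalized them, and the genome build, are not given in the sources used here. Of 1384231 rows, 354600 with 1 gene symbol were used, for 19426 genes (2950 symbols were updated and 121 kept as they were). Values were taken as log2 with no further normalization, rows no brighter than the median row (3.97) were dropped, and the median row gave the level of 18732 genes. Rows shared with near-identical copies are uncertain. limma 3.58.1 in R 4.3.3 (with the package data.table, at version 1.17.8), tested on simulated data, fitted 4 group means to 7 arrays with an intensity trend. All p-values are two-sided. The 7 contrasts were those of RA, of siRNF20, their averages and the difference between RA responses. Python 3.11.15 and matplotlib 3.10.9 drew the figures.

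The members, lists and left-out array were chosen with earlier results of these data known. All 10 members are named, as are up to 4 called genes of each list with the largest averaged change, or the largest 2 where none is called, and the 5 genes most like each of the 3 members called. In place of depth, the number of arrays limits the precision. Duplicates may be technical in part, and p-values then measure only the spread between these arrays. Alternatives were quantile normalization, 75th percentile scaling, no filter or a stricter one on dim rows, an offset of 16, the mean over rows, no intensity trend, all 8 arrays (with the row filter taken anew, or added later, kept from the 7), the GF number as a block and each array left out. A fit of single rows was also added after the data were seen.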

Additional observations from a re-analysis of the deposited data

Results flagged for a closer look

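The array labelled RA siLacZ GF117, which was left out of the main fit and used only where all 8 arrays are named, gave levels above all 4 DMSO arrays for 8 of the 10 SOX genes and below all of them for 1. The log2 levels above were 7.53 for SOX1, 8.57 for SOX3, 8.74 for SOX4, 8.29 for SOX11, 5.34 for SOX5, 4.86 for SOX6, 6.395 for SOX9 and 7.76 for SOX10, and SOX8 was below at 2.79. Over all genes tested, 26.1% were above all DMSO arrays on this array and 63.4% below. On the other RA siLacZ array SOX4 was at 7.75, SOX10 at 6.11 and SOX9 at 5.34, so the 2 arrays of this group did not give the same order against DMSO.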

How the results depend on the processing

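Of the log2 changes over all settings, 497 kept their direction and side of the threshold, 40 fell short of it, 5 newly passed it and 28 changed sign. Members called by RA averaged over backgrounds (3) became 0 with all 8 arrays and 1 to 3 with each array left out; in siRNF20 cells (2) they became 0 with no intensity trend, 0 with all 8 arrays and 0 to 2 with each array left out, and in siLacZ cells (1) they became 2 under the stricter filter, 2 with the mean over rows, 0 with no intensity trend, 0 with all 8 arrays and 0 to 1 with each array left out. With all 8 arrays and the rows of the 7 arrays, a setting added after the data were seen, these 3 counts were also 0. Averaged over backgrounds, SOX1 also passed under the stricter filter and with the mean over rows. SOX21 was lost from the averaged calls with the mean over rows and with no intensity trend. An unchanged count thus need not hold the same members. Members called by siRNF20 or for the difference between RA responses stayed at 0 under every setting run. Over all genes, 1878 averaged calls became 29 with all 8 arrays, and 733 in siLacZ cells and 734 in siRNF20 cells became 0; with no intensity trend 733 became 456, and with 1 array left out the lowest counts were 1095, 312 and 330.

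Signs changed for values that did not pass. With all 8 arrays SOX5 turned to 0.61 for the difference between RA responses and to 0.42 for siRNF20 in RA, SOX21 to 0.24 for siRNF20 in RA, SOX9 to 0.060 for RA in siLacZ cells, to 0.033 averaged, to -0.18 for siRNF20 under RA and to -0.055 for the difference, and SOX10 to 0.47 averaged. With the rows held as in the 7 arrays the 8 arrays gave 0.60 and 0.395 for the 2 SOX5 values, 0.24 for SOX21 and 0.38 for SOX10, and no sign of SOX9 changed (-0.22, -0.077, 0.27 and 0.29). SOX10 averaged was 0.000523 under quantile normalization, SOX3 for siRNF20 in DMSO was 0.11 with the mean over rows, SOX8 by RA in siRNF20 cells was 0.10 under the stricter filter, and SOX9 by RA in siRNF20 cells was -0.21 with no filter and -0.12 with the mean over rows. With each array left out, SOX5 ranged from -0.62 to 0.28 for the difference, from -0.51 to 0.10 for siRNF20 in DMSO and from -0.82 to 0.074 for siRNF20 in RA, SOX3 from -0.49 to 0.00294 for siRNF20 in DMSO, SOX8 from -0.37 to 0.00285 and SOX9 from -0.11 to 0.25 by RA in siRNF20 cells, and SOX10 from -0.17 to 0.11 averaged. The cause was not tested.

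The labels do not say what the GF numbers mark, and deviations of same-numbered arrays correlated at 0.297, 0.301 and 0.364 among 3 groups. With the replicate block, SOX21 passed in siRNF20 cells (0.97, limma adjusted p = 0.0219), giving 3 members called there, SOX10 averaged turned to 0.043, and calls over all genes were 3490 averaged, 1797 in siLacZ cells, 1965 in siRNF20 cells, and for siRNF20 itself 242 under RA and 240 averaged over treatments. Signal over background was not used here, so rows were filtered by brightness alone. SOX6 and the group E genes rest on 8 to 13 rows, and SOX1, SOX3 and SOX21 on 11 to 13.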

Other observations

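Among 5307 genes whose level spanned at least 1 log2 unit over the 7 arrays, those with a pattern most like SOX5 were MXD1 (Pearson r = 0.993), IFT88 (0.990), ASXL1 (0.990), RBMS1 (0.989) and SLC30A4 (0.989). Those most like SOX3 were LZTFL1 (0.989), GBX2 (0.981), PTCH1 (0.979), MCHR1 (0.974) and RGMB (0.969). GBX2, a hindbrain regulator, rose by RA by 0.94 averaged over backgrounds (limma adjusted p = 0.00614), and PTCH1, the hedgehog receptor, by 0.95 (limma adjusted p = 0.00367). Those most like SOX21 were ZFP30 (0.975), GPR78 (0.973), SPAG6 (0.959), ZNF420 (0.954) and GPA33 (0.952). The 7 points share the same arrays and treatments, and the values describe these arrays alone.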
